A study of Homo sapiens with 60 samples.

Results

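The 49 genes described here encode the kinases, checkpoint proteins, motors and chromosome proteins with which a cell divides, and they were taken by name from a table of 38342 gene names. They form 10 groups by role, from CDK1 and its cyclins to condensin, and genes of kinetochore structure were not part of the list. All 49 have a row in the table, and all 49 are among the 15866 genes that reached 1 FPKM (fragments of a message per kilobase of its length and M reads) in at least 3 of the 60 libraries and were therefore tested. RNA came from MDA-MB-231, an established human triple-negative breast cancer line, kept with DMSO or with 100, 300 or 1000 nM of the compound BAY2506856 for 1, 3, 6 or 24 h. Each time had 6 DMSO libraries and 3 libraries of each dose, and no group carried another treatment or allele by its labels. Times follow the sample labels, although the design text mentions only a 24 h harvest. The labels name no target of the compound. They do not say whether replicates are separate cultures, and p-values cover the spread among these libraries and no more.

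Entry into mitosis is driven by CDK1 bound to cyclin A or cyclin B, and is helped by the Aurora, Polo-like and NEK kinases. The spindle checkpoint then holds the anaphase promoting complex, a ubiquitin ligase, until every chromosome is attached, after which securin and cyclin B are destroyed, separase cuts cohesin and the central spindle directs cytokinesis. Most of these genes are transcribed late in the cell cycle, under FOXM1, MYBL2 and the MuvB proteins, which reach promoters through the cell cycle homology region (CHR), and NF-Y, which binds CCAAT boxes. The same genes are repressed in resting cells by the DREAM complex. In RNA from a whole culture, a smaller share of cells in G2 and mitosis and less of these messages in each cell cannot be told apart.

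Library depth was 0.475 to 86.5 M reads with a median of 11.2 M, and the lowest read number behind any value of the 49 genes was 14, for CDC25C and ESPL1. Expression of 11 pseudogenes and of mitochondrial MT-ND6 split the libraries into 3 types with no counterpart in the labels. There were 41 libraries of a first type, 13 of a second spread over all 4 times, and 6 further ones, namely 3 DMSO libraries at 1 h and 3 at 3 h. At 24 h the second type held 1000 nM replicates 1 and 3, 300 nM replicate 2 and DMSO replicate 2. Within groups, libraries of the second type differed from the first by -0.69 (log2) for KIF18B and -0.47 for CDC25B up to 0.64 for HMMR and 0.73 for SMC4, as means over 11 groups. Counts of genes below are therefore given from all 60 libraries and mostly also from a model with terms for both further types, as are the values of many single genes, and some within the first type alone, which leaves 1 library of 1000 nM at 24 h that is assumed to vary like the other groups. The line's own markers were high, as VIM at 397 to 642 FPKM and CD44 at 104 to 182 FPKM, whereas ESR1 and PGR, the hormone receptors that triple-negative cells lack, did not pass 0.003 and 0.013 FPKM. Of the other genes listed as low in such cells, ERBB2, the HER2 receptor, was measured at 4.755 to 10.6 FPKM, EPCAM at 4.43 to 16.3 FPKM and CDH1 at up to 1.09 FPKM. Markers of immune and endothelial cells with a row reached at most 0.411 and 0.038 FPKM.

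After 24 h the mitotic genes were lower in treated cells, and the lowest changes at 1000 nM were those of KIF18B, AURKB, CDC20, NCAPH and MYBL2 with all libraries, and of AURKB, MAD2L1, CDK1, CCNA2, KIF23 and NCAPH with type terms. With limma at a Benjamini-Hochberg adjusted p of 0.05, 36 of the 49 fell and 0 rose at 100 nM, against 9.2% of all tested genes called lower and 10.5% called higher, and their median log2 change was -0.49. At 300 nM 44 fell and 0 rose (14.2% and 16.5% of all tested genes), with a median of -0.66. With type terms 47 fell and 0 rose at 100 nM (13.8% and 16.8%), and 48 fell at 300 nM, where CDC25B rose (19.8% and 24.8%). At 1000 nM 41 fell and 0 rose, against 15.6% of all tested genes called lower and 19.1% called higher. Their median log2 change was -0.70, against 0.03 over all tested genes. With type terms 48 fell and 1, CDC25B, rose (median -0.81), where 20.5% of tested genes were lower and 27% higher. Every 1000 nM library lay below every DMSO library in 39 of the 49 genes, as in 10.6% of all tested genes. The 10 whose libraries overlapped were CDC25B, NEK2, ESPL1, KIF14, KIF18B, HMMR, CKAP2, ECT2, CEP55 and SMC4. Of the 41 calls at 1000 nM, 37 held under all 18 alternatives. Without 1000 nM replicate 2, the 1000 nM library of the first type, TTK (adjusted p = 0.191), KIF4A (0.0802), DLGAP5 (0.231) and SMC2 (0.186) missed the threshold, and without DMSO replicate 2 DLGAP5 did (0.0564). KIF14 (0.0282) and HMMR (0.0225) passed without 1000 nM replicate 3.

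**Figure D1:**
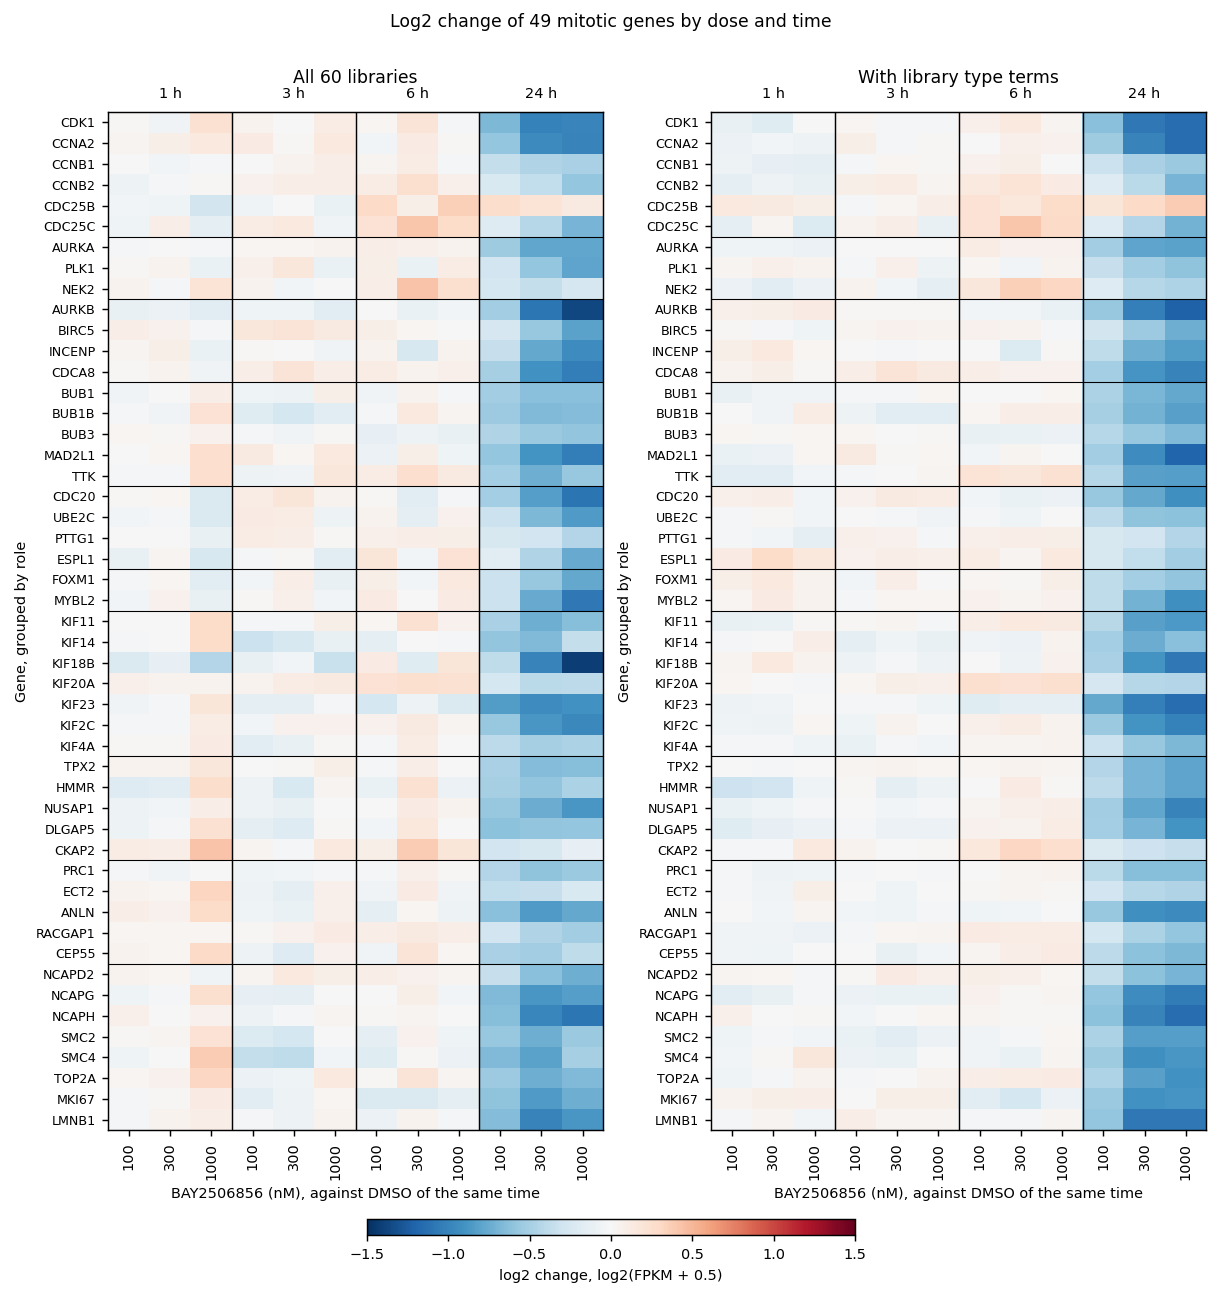
Log2 change of each of the 49 genes (rows, grouped by role) by dose, relative to time-matched DMSO (columns, 1 to 24 h), from all 60 libraries on the left and with library type terms on the right; blue is lower and red higher in treated cells. The 24 h columns are blue for all genes but CDC25B, and the 1 to 6 h columns are mostly paler, with median log2 changes of -0.03 to 0.10 on the left. Single genes there reach 0.43 at 300 nM after 6 h. At 1000 nM after 1 h, with 2 libraries of the second type among 3, they run from -0.44 to 0.42. With type terms that range is -0.20 to 0.17.

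Because these genes moved together at 24 h, their promoters were read for the CHR and for CCAAT boxes. RefSeq windows on GRCh38.p14, from 250 bases before to 50 after the gene start, were found for 41 of the 49 genes, and where 9 genes had more than 1 window the first was used. The CHR was searched as TTTGAA or TTCGAA and the box as CCAAT, on both strands. The 6 stretches below are shown, 5 because they place both motifs near the start of genes that fell and KIF2C because it fell with neither motif, with the matches in capitals. In MKI67, KIF11, KIF4A and ESPL1 a CCAAT box lies upstream of a CHR, and CDC20 has a box on either side of the CHR. In MKI67 a CHR and a box share a base.
MKI67: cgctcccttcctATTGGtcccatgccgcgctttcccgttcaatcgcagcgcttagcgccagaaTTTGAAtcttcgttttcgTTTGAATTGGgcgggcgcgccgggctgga
KIF11: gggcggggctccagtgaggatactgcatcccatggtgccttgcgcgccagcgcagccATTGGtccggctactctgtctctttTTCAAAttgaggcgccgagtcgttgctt
KIF4A: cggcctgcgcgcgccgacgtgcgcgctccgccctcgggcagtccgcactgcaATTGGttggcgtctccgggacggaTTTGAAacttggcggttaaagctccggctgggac
ESPL1: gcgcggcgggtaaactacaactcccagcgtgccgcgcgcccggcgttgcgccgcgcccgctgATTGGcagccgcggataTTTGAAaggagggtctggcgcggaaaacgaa
CDC20: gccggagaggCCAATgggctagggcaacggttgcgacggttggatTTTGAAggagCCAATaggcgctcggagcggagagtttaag
KIF2C: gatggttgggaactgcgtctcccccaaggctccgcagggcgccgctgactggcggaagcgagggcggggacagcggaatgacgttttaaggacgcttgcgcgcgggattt

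These stretches are, on GRCh38.p14, chr10:128126424-128126533 on the minus strand for MKI67 and, on the plus strand, chr10:92593020-92593129 for KIF11, chrX:70289994-70290103 for KIF4A, chr12:53268189-53268298 for ESPL1, chr1:43358871-43358955 for CDC20 and chr1:44739727-44739836 for KIF2C. A CHR was present in 28 of the 41 windows (68.3%), against 11.1% of the windows of 8747 tested genes. With every listed window of a gene read, it was present in 30 genes (73.2%), against 15.5%. The variant TTTAAA, not counted as a CHR here, was found in 12 (29.3%), against 7.2%. A CCAAT box was present in 30 (73.2%), against 36.9%, and both motifs in 23 (56.1%), against 4.8%. Close to the start, from 40 bases before to 5 after it, a CHR lay in 19 of the 41 genes. For this stretch the share among all tested genes was not counted. From 100 bases before to 50 after the start a CHR lay in 25 (61.0%), against 4.4%. An E2F site (TTTGGCGC, TTTCGCGC, TTTCCCGC or TTTGCCGC) was found in 2 (4.9%), against 5.7%. The MYB site AACNG was found in 35 (85.4%), against 74.4%. By the first window and without TTTAAA, 28 genes had a CHR and 13 did not. Their median log2 changes at 1000 nM after 24 h were -0.70 in each, and -0.85 and -0.71 with type terms. KIF2C, with neither motif, fell by 0.96 ± 0.06 (SE). CDC25C (-0.70), MYBL2 (-1.08), LMNB1 (-0.88) and CKAP2 (-0.12, not called with all libraries) have neither motif as well. The same holds for CDC25B, the member that rose with type terms. A match describes letters in these windows, and binding was not measured.

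**Figure D2:**
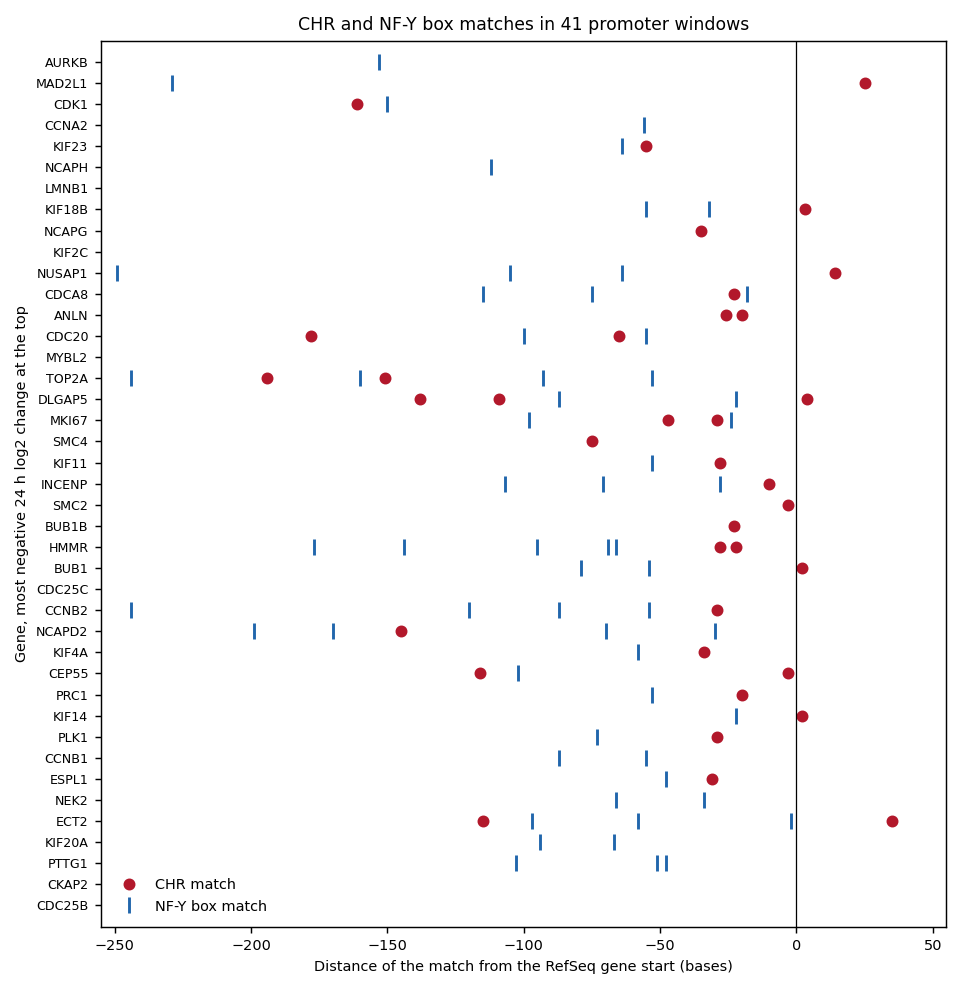
Position of CHR matches (red points) and CCAAT boxes (blue bars, labelled NF-Y box) in the promoter windows of 41 genes, in bases from the RefSeq gene start at 0, with genes ordered by the 24 h change at 1000 nM with type terms, the most negative at the top. A CHR is present in 28 of the 41 windows. CDC25B at the bottom has neither motif, nor have CDC25C, MYBL2, KIF2C, CKAP2 and LMNB1, whose changes are negative.

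Among CDK1, its cyclins and the CDC25 phosphatases, 5 of 6 genes fell at 1000 nM after 24 h, with a median of -0.64. CDK1, the kinase that starts mitosis, had 29.7, 23.0 and 31.1 FPKM at 1000 nM, against 49.8 at the lowest, 53.0 at the median and 69.9 at the highest of 6 DMSO libraries. It fell by 0.99 ± 0.13 (SE; limma adjusted p = 1.87e-08), and by 1.15 with type terms, and the groups did not overlap. CCNA2, cyclin A2, had 46.3, 37.3 and 53.0 FPKM at 1000 nM, against 79.8, 87.2 and 121 in DMSO (lowest, median and highest). Its fall of 1.00 ± 0.12 (adjusted p = 3.75e-09) was close in size to that of its kinase, also with type terms (1.15). CCNB1, cyclin B1, fell less, to 103, 88.4 and 120 FPKM at 1000 nM, against 131, 146 and 155 in DMSO. All 3 treated libraries lay below the 6 DMSO libraries, and the log2 change was -0.48 ± 0.09 (adjusted p = 9.41e-06), and -0.56 with type terms. CCNB2 (-0.58) and CDC25C, a phosphatase that activates CDK1 at entry (-0.70), fell too.

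CDC25B, the related phosphatase that acts first at the centrosome, differed from the rest of the list. It had 34.6, 46.8 and 27.4 FPKM at 1000 nM, against 21.1, 35.0 and 38.2 in DMSO (lowest, median and highest). The groups overlapped, and the log2 change of 0.14 ± 0.18 missed the threshold (adjusted p = 0.588). The low values at each dose were those of the second library type: 27.4 and 34.6 at 1000 nM, 29.9 at 300 nM and 21.1 in DMSO. In the first type CDC25B averaged 35.0 FPKM in 5 DMSO libraries, 38.6 in 3 at 100 nM and 41.5 in 2 at 300 nM, and measured 46.8 in the 1 at 1000 nM. With type terms it rose by 0.38 ± 0.09 (adjusted p = 6.42e-04) and within the first type by 0.42 (0.00929), while adjusted p ran from 6.42e-04 to 0.942 over all alternatives. Without 1000 nM replicate 2 its log2 change was -0.06.

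Of the 3 other mitotic kinases, AURKA and PLK1 fell and NEK2 missed the threshold with all libraries. AURKA, which builds the spindle poles, had 48.7, 43.8 and 54.1 FPKM at 1000 nM, against 77.4, 82.6 and 93.8 in DMSO (lowest, median and highest). Its change of -0.77 ± 0.06 (adjusted p = 2.25e-16) came with no overlap between groups, and was -0.81 with type terms. PLK1, the Polo-like kinase needed from entry to cytokinesis, had 14.4, 19.4 and 14.7 FPKM, against 20.8, 29.3 and 32.1 in DMSO. It fell by 0.79 ± 0.12 (adjusted p = 1.25e-06), and by 0.61 with type terms. NEK2, which separates the centrosomes, had 23.7, 17.3 and 27.3 FPKM, against 24.8, 25.9 and 32.7 in DMSO. With all libraries its change was -0.25 ± 0.15 (adjusted p = 0.206), and with type terms it was past the threshold at -0.46.

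All 4 members of the chromosomal passenger complex, which corrects wrong attachments and later guides cytokinesis, fell, with a median of -0.99, the lowest of the 10 groups with all libraries. With type terms it was -0.92, beside -0.90 for condensin, chromosomes and envelope. Within the first type it was -0.89, above the -1.03 of that group and the -0.92 of the kinesins. AURKB, its kinase, had 11.2, 14.6 and 8.46 FPKM at 1000 nM, against 22.1, 30.8 and 33.8 in DMSO (lowest, median and highest). It fell by 1.37 ± 0.13 (adjusted p = 4.87e-12), or 2.58-fold, and by 1.22 with type terms. CDCA8, the subunit borealin, was more even between libraries, with 20.8, 22.3 and 22.1 FPKM at 1000 nM against 41.0, 45.8 and 47.3 in DMSO. Its fall of 1.04 ± 0.06 (adjusted p = 2.35e-20) hardly moved with type terms (1.00). BIRC5, the subunit survivin, fell least in the complex with all libraries, to 26.5, 29.6 and 26.0 FPKM at 1000 nM, against 37.9, 49.2 and 55.9 in DMSO. Its change was -0.80 ± 0.08 (adjusted p = 6.07e-11), and the scaffold INCENP stood at -0.95 ± 0.12. With type terms these were -0.73 and -0.84.

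**Figure D3:**
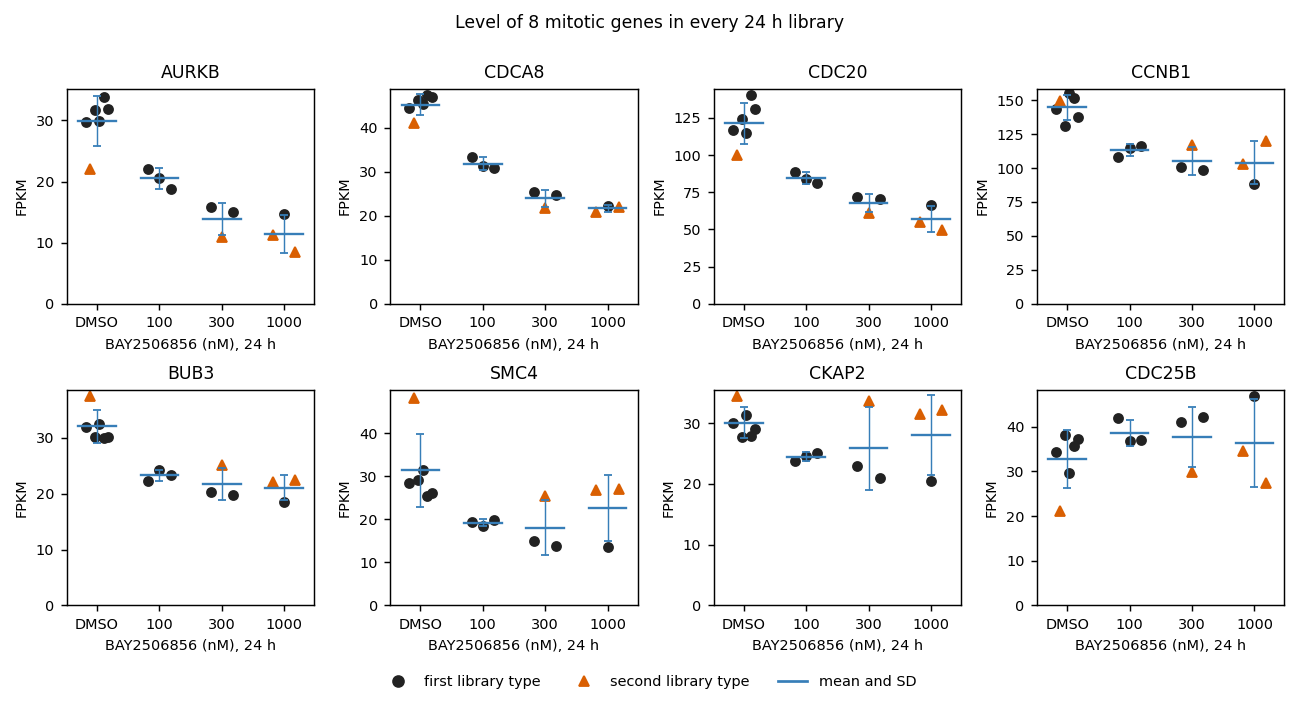
FPKM of 8 genes in each 24 h library by dose of BAY2506856 (DMSO, 100, 300 and 1000 nM), with circles for the first and triangles for the second library type and bars for the mean and SD. AURKB, CDCA8 and CDC20 decline from DMSO to 1000 nM in both types, while in SMC4, CKAP2 and CDC25B the second type stands apart, such as 26.8 and 27.1 FPKM of SMC4 beside 13.7 at 1000 nM.

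The 5 genes of the spindle checkpoint all fell. MAD2L1, whose protein MAD2 binds and restrains CDC20, had 11.0, 9.65 and 13.8 FPKM at 1000 nM, against 21.0, 23.5 and 29.8 in DMSO (lowest, median and highest). It fell by 1.03 ± 0.13 (adjusted p = 9.84e-09), the most of the checkpoint genes, and by 1.19 with type terms. BUB3, which carries BUB1 and BUBR1 to kinetochores, had 22.2, 18.5 and 22.5 FPKM, against 30.0, 31.1 and 37.6 in DMSO, and fell by 0.60 ± 0.06 (adjusted p = 1.74e-10) without overlap, and by 0.66 with type terms. TTK, the checkpoint kinase MPS1, was the least certain at 15.7, 8.81 and 13.9 FPKM, against 16.1, 18.3 and 24.4 in DMSO. Its highest treated library lay just under the lowest DMSO library, and its change was -0.57 ± 0.18 (adjusted p = 0.0107), or -0.83 with type terms. BUB1 (-0.62) and BUB1B, which encodes BUBR1 (-0.66), lay close to BUB3.

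Genes of anaphase and chromatid separation fell in all 4 cases. CDC20, the activator of the anaphase promoting complex, had 54.9, 66.3 and 49.2 FPKM at 1000 nM, against 100.3, 121 and 140.1 in DMSO (lowest, median and highest). It fell by 1.09 ± 0.12 (adjusted p = 2.95e-10), or 2.13-fold, with no overlap, and by 0.92 with type terms. PTTG1, the separase inhibitor securin, moved least of this group, to 63.9, 69.3 and 78.3 FPKM against 88.2, 94.0 and 108 in DMSO, at -0.44 ± 0.07 (adjusted p = 1.37e-06). UBE2C, the ubiquitin-conjugating enzyme of the complex, changed by -0.85, and separase itself, ESPL1, by -0.76, with type terms -0.62 and -0.52. Both mitotic transcription factors fell as well. MYBL2, which binds MuvB proteins at late cell cycle promoters, had 19.4, 25.8 and 19.4 FPKM at 1000 nM against 31.2, 49.5 and 54.9 in DMSO. Its change was -1.08 ± 0.12 (adjusted p = 7.44e-10), and -0.92 with type terms. FOXM1 had 25.3, 29.2 and 20.5 FPKM against 37.5, 43.5 and 45.2 in DMSO, a change of -0.76 ± 0.12 (adjusted p = 1.07e-06), and -0.59 with type terms.

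Of the 7 kinesins, motors that move along microtubules, 6 fell with all libraries and 7 with type terms. KIF18B, a plus-end motor that shortens microtubules, had 2.99, 6.75 and 3.40 FPKM at 1000 nM, against 6.66, 13.5 and 14.8 in DMSO (lowest, median and highest). The 6.75 and the 6.66 come from the 1000 nM library of the first type and the DMSO library of the second, so that the groups overlapped by this pair. The log2 change was -1.41 ± 0.24 (adjusted p = 4.18e-06), and -1.07 with type terms. KIF14, a kinesin of the midbody, had 9.52, 5.24 and 11.1 FPKM, against 9.56, 10.23 and 15.0 in DMSO. It missed the threshold at -0.36 ± 0.18 (adjusted p = 0.116) and passed it with type terms at -0.63. KIF20A, which relocates the passenger complex to the central spindle, had 50.1, 41.6 and 50.6 FPKM, against 58.7, 61.7 and 67.8 in DMSO, and fell by 0.39 ± 0.06 (adjusted p = 4.74e-07). Between these lay KIF2C, a microtubule depolymerase (-0.96), KIF23, a centralspindlin subunit (-0.91), KIF11, the motor that pushes the poles apart (-0.63), and KIF4A, a chromosome-bound motor (-0.47).

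Among 5 spindle microtubule proteins 3 fell with all libraries and 5 with type terms. NUSAP1, a microtubule bundler, had 46.9, 36.9 and 44.3 FPKM at 1000 nM, against 68.9, 75.8 and 102 in DMSO (lowest, median and highest), and fell by 0.87 ± 0.10 (adjusted p = 2.55e-10). CKAP2, a microtubule-stabilising protein, had 31.5, 20.4 and 32.2 FPKM, against 27.7, 29.5 and 34.5 in DMSO. Its second-type libraries lay inside the DMSO range and its first-type library below it. The change was -0.12 ± 0.16 (adjusted p = 0.585), with type terms -0.35, and adjusted p ran from 2.59e-05 to 0.819 over all alternatives. Without 1000 nM replicate 2 the sign of CKAP2 turned, at 0.09 on the log2 scale. TPX2, the spindle activator of Aurora A, fell by 0.64, and DLGAP5, a Ran-regulated spindle protein, by 0.58. HMMR, a spindle pole protein, stood at -0.47 with all libraries (adjusted p = 0.0864) and at -0.79 with type terms.

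In the cytokinesis group 3 of 5 genes fell with all libraries and 5 with type terms. ANLN, the contractile ring scaffold anillin, had 68.7, 53.1 and 80.9 FPKM at 1000 nM, against 102, 107 and 147 in DMSO (lowest, median and highest), and fell by 0.76 ± 0.14 (adjusted p = 1.39e-05). ECT2, which activates RhoA at the equator, had 40.1, 28.9 and 43.6 FPKM, against 37.5, 40.5 and 56.3 in DMSO. The groups overlapped at -0.23 ± 0.16 (adjusted p = 0.272), and with type terms the change was past the threshold at -0.45. PRC1, which bundles the central spindle, and RACGAP1, the partner of KIF23, fell by 0.55 and 0.52. CEP55, an abscission protein, stood at -0.38 (adjusted p = 0.105) and at -0.67 with type terms.

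Of the 8 genes of condensin, chromosomes and the nuclear envelope, 7 fell with all libraries and 8 with type terms. NCAPH, the kleisin that closes the condensin I ring, had 15.0, 14.0 and 16.4 FPKM at 1000 nM, against 30.8, 32.1 and 35.9 in DMSO (lowest, median and highest). It fell by 1.08 ± 0.06 (adjusted p = 1.26e-19), or 2.12-fold, and by 1.14 with type terms. SMC4, a condensin ATPase, had 26.8, 13.7 and 27.1 FPKM, against 25.3, 28.7 and 48.1 in DMSO. The second type read about as high at 1000 nM as the first type in DMSO, and the change of -0.50 ± 0.23 missed the threshold (adjusted p = 0.0856). With type terms SMC4 was at -0.87, and its adjusted p ran from 1.83e-11 to 0.597 over all alternatives. TOP2A, the topoisomerase that untangles sister DNA, had 92.5, 65.4 and 106 FPKM, against 122, 129 and 185 in DMSO, and fell by 0.67 ± 0.16 (adjusted p = 9.94e-04). MKI67, which encodes the proliferation antigen Ki-67 of the chromosome surface, had 26.4, 18.3 and 28.2 FPKM, against 32.1, 39.6 and 49.0 in DMSO, and fell by 0.73 ± 0.13 (adjusted p = 1.38e-05). LMNB1, lamin B1 of the nuclear envelope, had 26.7, 17.1 and 23.3 FPKM, against 37.1, 38.6 and 54.0 in DMSO, and fell by 0.88 ± 0.13 (adjusted p = 2.86e-07). NCAPG (-0.82), NCAPD2 (-0.73) and SMC2 (-0.55) complete condensin I. With type terms TOP2A was at -0.91, MKI67 at -0.88 and LMNB1 at -1.08.

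**Figure D4:**
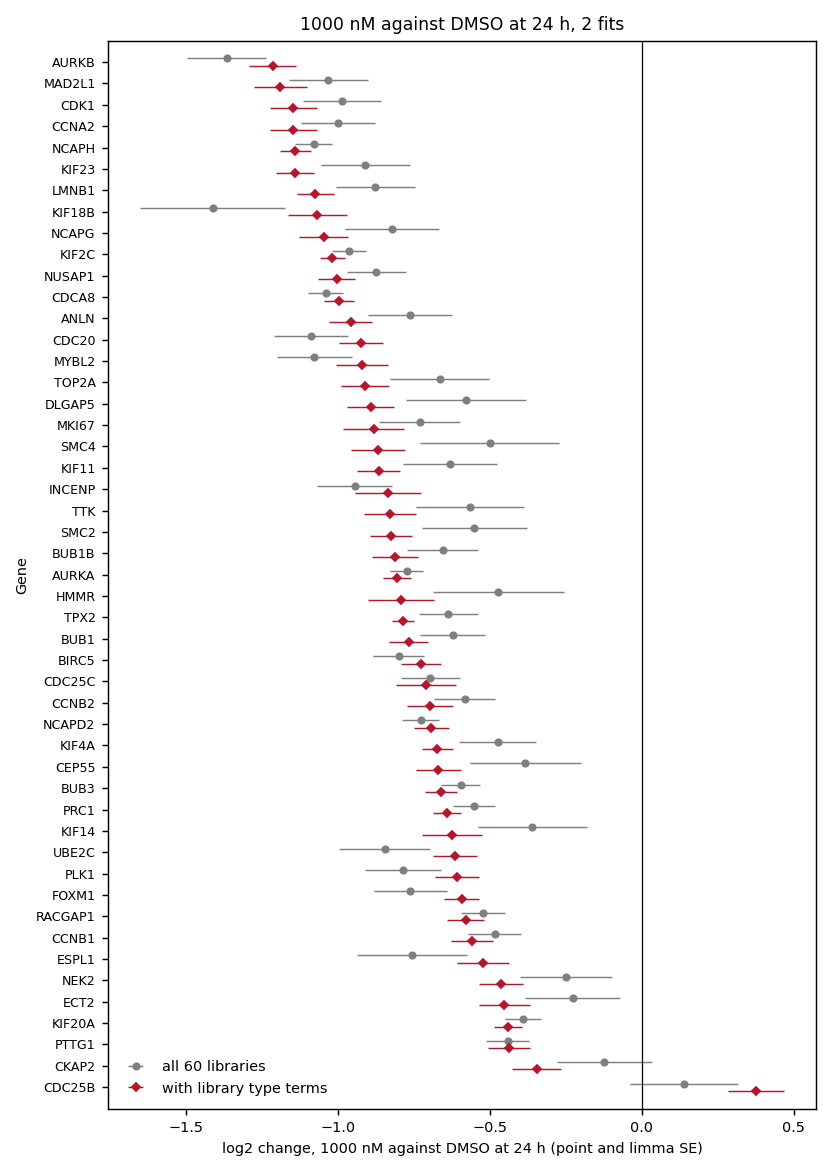
Log2 change at 1000 nM against DMSO at 24 h for each of the 49 genes with its limma SE, from all 60 libraries (grey circles) and with library type terms (red diamonds), in the order of the second fit. CDC25B lies right of 0 and all others left of it in both fits; with type terms the fall was larger in 35 genes.

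Setting the doses side by side at 24 h, CDCA8 averaged 45.2 ± 2.32 FPKM in DMSO (SD, n = 6), 31.8 ± 1.43 at 100 nM, 24.0 ± 1.93 at 300 nM and 21.7 ± 0.822 at 1000 nM (SD, n = 3 each). At 1000 nM against 100 nM it was lower by 0.54 ± 0.07 on the log2 scale (adjusted p = 6.69e-08). In this comparison 13 of the 49 genes were lower and 0 higher, where 2.86% and 2.08% of all tested genes were called, and with type terms 40 were lower and 0 higher (4.68% and 3.23%). The lowest changes were those of KIF18B (-1.04), AURKB (-0.85), MYBL2 (-0.75) and INCENP (-0.61), and within the first type they were -0.39, -0.47, -0.48 and -0.37. Other genes were then the lowest, CCNA2 (-0.69) and MAD2L1 (-0.68) within the first type and MAD2L1 (-0.67) with type terms. Without 100 nM replicate 1 the count was 8. A fit of the groups compared alone gave 0 such calls. At 300 nM against 100 nM 5 genes were lower, CDCA8, NCAPH, KIF2C, NCAPD2 and AURKA, with 0 higher (0.813% and 0.353% of all tested genes), and 25 and 0 with type terms (2.74% and 1.3%). Without 100 nM replicate 3, as without 300 nM replicate 3, the count was 2. At 1000 nM against 300 nM 0 of the 49 passed with all libraries or type terms, where 0.0126% of all tested genes were lower with all libraries, 0.0504% with type terms, and 0% higher in either fit, and the log2 changes ran from -0.41 for KIF18B to 0.30 for SMC4. Over all libraries, means were lower at each step from DMSO to 1000 nM in 24 of the 49 genes. Within the first type this held in 48, all but CDC25B, with 1 library behind the 1000 nM value. For neither count was the share among all tested genes counted. In the first type 32 of the 49 were called lower at 300 nM against 100 nM, where 575 of all 15866 tested genes were. At 1000 nM against 300 nM the log2 changes there were small, with a median of -0.12 and a range of -0.22 to 0.17.

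At 1 and 3 h none of the 49 passed the threshold at any dose with all libraries or with type terms, where 0% of all tested genes were called at 1 h with all libraries and at most 0.0063% with type terms. After 3 h 0.0693%, 0.101% and 0.107% of all tested genes were lower at 100, 300 and 1000 nM, and 0%, 0.0252% and 0.0252% higher. With type terms these shares were 0.0756%, 0.0945% and 0.151% lower and 0.0063%, 0.0126% and 0.0756% higher. At an unadjusted p under 0.05, 2 of the 49 differed at 1000 nM after 1 h and 1 after 3 h, where 10.3% and 7.41% of all tested genes did, and voom on recovered reads called 0 at both times. With limma array weights, which give each library its own weight, 26 of the 49 were higher and 7 lower at 1000 nM after 1 h, and 10 were higher and 6 lower after 3 h. That setting called 18.6% of all tested genes higher and 21.6% lower at 1 h, and 10.3% and 13.6% at 3 h, and its weights stopped short of convergence. CDCA8 rose within the first type at 300 nM after 3 h, by 0.28 (adjusted p = 0.00337), and was not called with all libraries. After 6 h KIF20A was higher, at 51.5, 54.0 and 55.7 FPKM at 1000 nM against 43.4, 46.4 and 48.3 in DMSO (lowest, median and highest). The groups did not overlap, and it rose by 0.22 ± 0.06 (adjusted p = 0.0265), the only call among the 49, where 0.706% of all tested genes were higher and 1.3% lower. That call was lost without 1000 nM replicate 2 (adjusted p = 0.147), 1000 nM replicate 3 (0.246), DMSO replicate 1 (0.061) or DMSO replicate 5 (0.0665). With type terms KIF20A rose by 0.24, and NEK2 (0.31) and CKAP2 (0.25) also rose (3 of 49 higher and 0 lower, beside 1.86% and 2.79% of all tested genes).

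At 300 nM after 6 h KIF20A had 55.3, 52.2 and 55.0 FPKM and rose by 0.24 ± 0.06 (adjusted p = 0.0185). CDC25C also rose there, by 0.42 ± 0.10 (adjusted p = 0.0098), with 12.2, 10.1 and 10.7 FPKM against 7.36, 8.12 and 9.01 in DMSO. These were the only 2 calls, where 0.561% of all tested genes were higher and 1.11% lower. The KIF20A call was lost without 300 nM replicate 1 (adjusted p = 0.14), 300 nM replicate 3 (0.115) or DMSO replicate 1 (0.05), and that of CDC25C without 300 nM replicate 1 (0.185). At 100 nM KIF20A had 51.9, 56.0 and 52.7 FPKM, above all DMSO libraries, and its adjusted p was 0.0625 (0 calls, where 0.208% were higher and 0.655% lower). With type terms 4 of the 49 were higher at 300 nM (1.58% of all tested genes, 3.09% lower) and 1, KIF20A, at 100 nM (0.63%, 1.54% lower). CDC25B was not called at 6 h with all libraries, at 0.29 for 100 nM, 0.08 for 300 nM and 0.36 for 1000 nM. It passed at 1000 nM within the first type (0.28, adjusted p = 0.0332) and with array weights (0.35, 5.97e-04), and with array weights also at 100 nM (adjusted p = 0.00452) and 300 nM (0.28, 0.00676). Over all alternatives its adjusted p reached 1 at each dose, and its lowest values were those with array weights. The 3 doses share the DMSO libraries, so these values are not independent.

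**Figure D5:**
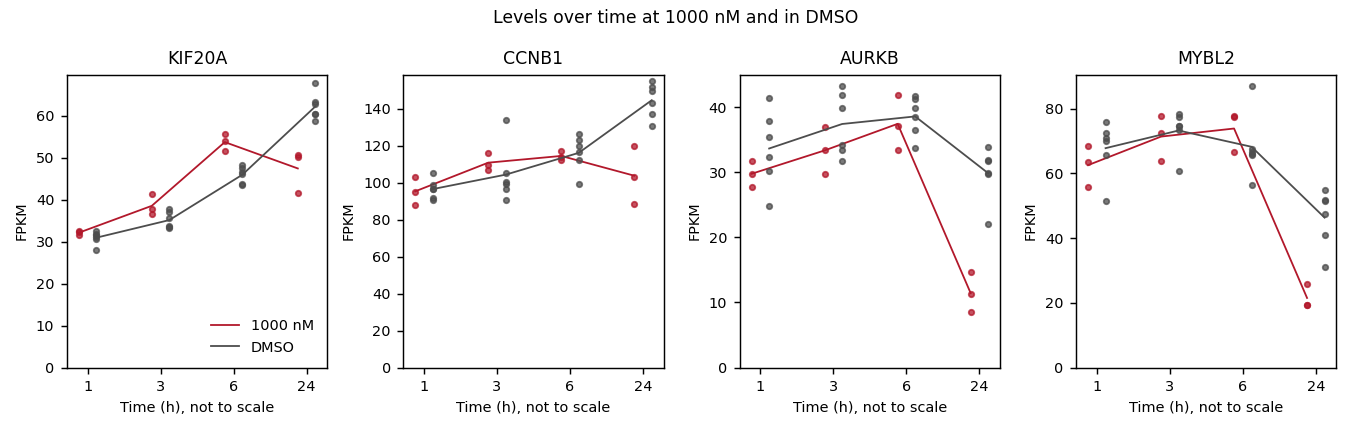
FPKM of KIF20A, CCNB1, AURKB and MYBL2 in each 1000 nM (red) and DMSO (grey) library at 1, 3, 6 and 24 h, with lines through the group means; times are evenly spaced and not to scale. KIF20A is higher at 1000 nM at 6 h and lower at 24 h, while in DMSO its mean is higher at each later time and that of MYBL2 is lower at 24 h.

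The 1000 nM effect was lower at 24 h than at 6 h in 37 of the 49 genes and higher in 0, where 6.95% and 8.16% of all tested genes were called, and 48 were lower and 0 higher with type terms (12% and 15.4%). With all libraries this difference of log2 changes was -1.59 ± 0.34 for KIF18B (limma adjusted p = 4.88e-04), -1.32 ± 0.19 for AURKB (4.36e-07) and -1.12 ± 0.08 for CDCA8 (2.01e-15). KIF20A, higher at 6 h, was at -0.62 ± 0.08 (adjusted p = 2.16e-07). With type terms the lowest difference among the 49 was -1.21, so KIF18B was less negative in that fit. From 3 to 6 h the effect differed in 0 genes (0.189% of all tested genes lower, 0.0378% higher), and with type terms in 1, NEK2, at 0.45 (0.517% lower, 0.12% higher).

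The DMSO cultures changed over the same hours, and in the other direction for most of the list. At 24 h against 1 h 28 of the 49 were higher and 1 lower (9.78% and 8.45% of all tested genes), with a median of 0.29, and with type terms 36 and 1 (14% and 11%). KIF20A was at 58.7, 61.7 and 67.8 FPKM in DMSO at 24 h (lowest, median and highest), against 27.9, 31.3 and 32.5 at 1 h, and rose by 1.00 ± 0.05 (adjusted p = 3.18e-21). DLGAP5 (0.75), NEK2 (0.74), CCNB2 (0.69) and PTTG1 (0.67) rose next. CCNB1 was at 131, 146 and 155 FPKM against 90.6, 96.6 and 105 at 1 h, and rose by 0.58 ± 0.07 (adjusted p = 1.74e-08). MYBL2 was the exception, at 31.2, 49.5 and 54.9 FPKM against 51.6, 70.5 and 76.0, and fell by 0.56 ± 0.10 (adjusted p = 5.41e-05). Against 6 h, 5 were higher in DMSO at 24 h (CCNB1, CCNB2, AURKA, PTTG1 and KIF20A) and 3 lower (MYBL2, AURKB and INCENP), where 4.96% and 4.38% of all tested genes were called. With type terms 11 were higher and 8 lower (11.8% and 14.4%). Without DMSO 6 h replicate 1 or replicate 4 the count of lower genes was 1, and without DMSO 6 h replicate 5 it was 5. Without DMSO 24 h replicate 2, the library with 0.475 M reads, AURKB (limma adjusted p = 0.0979) and INCENP (0.12) missed the threshold. INCENP also missed it without DMSO 6 h replicate 2 (0.0635), DMSO 24 h replicate 1 (0.0979) or DMSO 24 h replicate 4 (0.14). Mean levels at 1000 nM after 24 h were below those of DMSO at 1 h in 37 of the 49 genes and above them in 12. KIF20A was 1 of the 12, at 47.5 ± 5.04 FPKM (SD, n = 3) against 30.95 ± 1.62 in DMSO (SD, n = 6). These means mix library types, and the share among all tested genes was not counted. In the first type, with 1 library at 1000 nM, KIF20A had 41.6 FPKM, against 31.7 and 31.0 in DMSO at 1 h. CEP55, another of the 12, had 39.7 FPKM there, against 45.9 and 46.5, and so lay below DMSO. How much of each 24 h difference is due to the rise in DMSO was not tested.

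Genes that work with the 49 were read from 9 further lists at 1000 nM after 24 h. Of all tested genes, 15.6% were lower and 19.1% higher in this comparison, and 20.5% and 27% with type terms. All 3 genes of condensin II, which acts in the nucleus before the envelope breaks, fell (median -0.99, with type terms -0.73), such as NCAPD3 at -1.1. Of 18 other regulators of mitotic entry and exit 14 fell and 1 rose (median -0.73), and 13 and 2 with type terms; MASTL, the Greatwall kinase, fell by 1.32, and PKMYT1, which inhibits CDK1, was at -1.404, although PKMYT1 missed the threshold with type terms (-0.73, adjusted p = 0.0784). Of 15 further spindle and centrosome genes 11 fell and 0 rose (median -0.63), and 14 and 1 with type terms; SKA3, of a microtubule coupler, was at -1.14 and FAM83D at -0.83. Of 10 tested genes of DREAM and MuvB 7 fell and 1 rose (median -0.55), and 8 and 1 with type terms, with RBL1, the pocket protein p107, at -1.05 and LIN52 at -0.85.

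Other machinery was more mixed, beside the same 15.6% of all tested genes lower and 19.1% higher, or 20.5% and 27% with type terms. The anaphase promoting complex, with 4 of 14 genes lower and 2 higher, and 5 and 2 with type terms, had a median of -0.10 and held ANAPC1 at -0.42 and ANAPC16 at 0.38. Further kinesins gave 4 lower and 4 higher of 12, with KIFC1 at -0.996 and KIF15 at -0.86, and 7 lower and 2 higher with type terms. Cohesin and its regulators gave 4 lower and 2 higher of 12, and 8 and 0 with type terms, led by sororin, CDCA5 (-1.54), and ESCO2 (-1.06). Tubulins gave 5 lower and 1 higher of 9, the 1 being TUBB2A at 0.72, and TUBA4A fell by 0.68; with type terms 4 were lower and 1 higher. DNA replication genes, used in S phase, fell in 40 of 40 cases with a median of -1.45 (-1.46 with type terms), and PRIM1 (-2.34) and CDC6 (-2.17) had the largest falls. In DMSO that list went the other way from the mitotic genes. At 24 h against 1 h 27 of 40 were lower and 1 higher (8.45% and 9.78% of all tested genes). After 6 h at 1000 nM 0 genes of these 9 lists were called with all libraries (1.3% of all tested genes lower, 0.706% higher). With type terms 2 of the 40 DNA replication genes were lower, as were 2.79% of all tested genes.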

How the data were processed

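Values were deposited by the authors as log2(FPKM + 1) per gene name and library; per the submitters' processing notes, STAR 2.4.2a, hg19, featureCounts 1.4.6-p2 and DESeq2 were used; no annotation release is named there. Per the labels' protocols, stranded poly(A) libraries were read from 1 end. The log2 values were turned back into FPKM, and whole reads were recovered for 100% of the values above 0, within 0.01 read, which gave the depths. Reads carry no molecular identifiers.

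Tests used limma 3.58.1 in R 4.3.3 on log2(FPKM + 0.5), with 1 mean for each of 16 groups, trended and robust variance and 44 residual degrees of freedom. Genes reaching 1 FPKM in 3 or more libraries entered, and p-values were adjusted by Benjamini and Hochberg over 15866 genes within each of 19 comparisons. Fold changes on this scale understate changes of low genes. On simulated data the fit was tested with 200 changed genes.

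The second library type had a pseudogene index of 3.49 to 4.99, against -1.35 to -0.59 in the others, and the third had MT-ND6 at 56.9 to 105.4 FPKM, against 0.848 to 11.18. The labels name no origin of the types. No 2 libraries held identical values (0 pairs).

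Alternatives were a pseudocount of 0.1, no filter, median-of-ratios scaling, array weights, type terms, the first type alone, no libraries under 2 M reads, voom on recovered reads, fits of the compared groups alone and each library left out in turn. Values by library are given for a set list of 11 genes, for the genes of each role group with the largest and smallest change at 1000 nM after 24 h, and for those called at 1000 nM after 6 h; other lists show their 2 called genes with the largest change. The members, lists, tests and library types were chosen with earlier results of these data known. Promoters came from RefSeq on GRCh38.p14 and were not joined to hg19 coordinates.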

Additional observations from a re-analysis of the deposited data

Results flagged for a closer look

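In groups of 6 DMSO libraries, 1 library lay far from the other 5 in 33 of 112 cases, over 28 genes and 4 times. For 6 independent, normally spread values chance gives such a library in about 1 in 20 groups. The 28 genes were read in the same libraries at each time, so the 112 cases are not independent and cannot be set against that rate. In 31 cases it was the group's library of the second type.

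At 1 h this was replicate 3, with 64.9 FPKM of CDK1, 91.4 of CCNA2, 20.7 of NEK2, 28.3 of MAD2L1, 32.35 of CKAP2 and 48.1 of LMNB1, all above the other libraries. The same library had 70.2 FPKM of CDC20 and 25.8 of FOXM1, below the others. At 3 h it was replicate 6, with 134.02 FPKM of CCNB1, 28.6 of NEK2, 23.6 of TTK, 29.3 of CKAP2, 48.3 of ECT2, 133 of ANLN and 171 of TOP2A above the others, and 82.7 of CDC20 and 60.8 of MYBL2 below them. At 6 h it was replicate 5, with 29.2 FPKM of NEK2, 38.6 of CKAP2 and 49.5 of SMC4 above and 30.9 of FOXM1 below the others.

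At 24 h it was replicate 2, the library with 0.475 M reads. It had 121 FPKM of CCNA2, 32.7 of NEK2, 37.6 of BUB3, 15.0 of KIF14, 102 of NUSAP1, 35.9 of NCAPH, 48.1 of SMC4, 185 of TOP2A and 54.0 of LMNB1 above the others, and 22.1 of AURKB below them. The other 2 cases were 87.2 FPKM of MYBL2 in replicate 1 at 6 h, of the first type and above the others, and 27.5 of NCAPH in replicate 4 at 1 h, of the third type and below them. The part of library type and depth in these values was not tested.

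The effect of 1000 nM differed between times by a test of the difference itself, and was lower at 24 h than at 6 h in 37 of the 49 genes.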

How the results depend on the processing

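Counts below are of the 49 genes. A pseudocount of 0.1 and no filter kept all 38 counts within 1.5 times of those reported. Array weights, whose estimation stopped before it converged, gave 7 lower and 26 higher for 1000 nM at 1 h. Of all 15866 tested genes they called 3422 lower and 2958 higher there, and such counts follow in brackets in the same order. At 3 h they gave 6 lower and 9 higher for 100 nM (2374 and 1320), 4 and 6 for 300 nM (1875 and 1184), and 6 and 10 for 1000 nM (2163 and 1640). After 6 h 1 was lower and 3 higher at 100 nM (653 and 525), 2 lower and 9 higher at 300 nM (1087 and 1022), and 7 higher at 1000 nM (1014). At 24 h array weights gave 1 higher at 300 nM (4322), and 23 lower and 3 higher at 1000 against 100 nM (3635 and 3390). They gave 13 lower and 23 higher at 1000 against 300 nM (3800 and 3741), and 43 lower at 300 against 100 nM (1347). They also gave 2 lower and 6 higher for the effect at 6 minus 3 h (1530 and 1613). In DMSO they gave 2 lower at 24 against 1 h (2227), and 10 lower and 9 higher at 24 against 6 h (1573 and 1924).

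Within the first type 1 was higher at 300 nM after 3 h (10 of all 15866 tested genes). After 6 h 1 was lower and 1 higher at 100 nM (358 and 177). At 300 nM 1 was lower and 4 higher (498 and 269), and at 1000 nM 5 were higher (531). At 24 h 1 was higher at 300 nM (3543), and 32 were lower at 300 against 100 nM (575). Counts for 1000 nM at 24 h are left out here, as the first type holds 1 such library. The effect at 6 minus 3 h had 1 higher (45), and DMSO at 24 against 6 h had 10 lower and 13 higher (2068 and 2190). Type terms gave 1 higher at 100 nM, 4 at 300 nM and 3 at 1000 nM after 6 h (100, 251 and 295). After 24 h they gave 1 higher at 1000 nM and 1 at 300 nM (4290 and 3933). They gave 40 lower at 1000 against 100 nM and 25 at 300 against 100 nM (743 and 434). For the effect at 6 minus 3 h 1 was higher (19), and in DMSO at 24 against 6 h 8 were lower and 11 higher (2287 and 1875).

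Fits of the compared groups alone, with fewer samples, gave 0 higher at 1000 nM and 0 at 300 nM after 6 h. Of all 15866 tested genes, 36 and 19 were higher there. They gave 0 lower for 1000 and for 300 nM against 100 nM (3 and 4). In DMSO they gave 15 higher at 24 against 1 h (553), and 0 lower and 3 higher at 24 against 6 h (146 and 224). In DMSO at 24 against 1 h, 2 were lower with median-of-ratios scaling (1477), with voom (1122) and without libraries under 2 M reads (1184). Voom gave 11 lower at 300 against 100 nM (310). Without libraries under 2 M reads 1 was higher at 100 nM after 6 h (57) and 21 lower at 1000 against 100 nM (774).

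Leaving out each library gave 0 to 1 higher at 1000 nM and 0 to 3 at 300 nM after 6 h. At 24 h it gave 24 (without 100 nM replicate 2) to 36 lower at 100 nM, 39 to 46 at 300 nM and 37 to 43 at 1000 nM. It gave 8 to 15 lower at 1000 against 100 nM, 2 to 5 at 300 against 100 nM, 1 to 2 in DMSO at 24 against 1 h and 1 to 5 at 24 against 6 h. Without each library in turn CDC25B at 1000 nM after 24 h ran from -0.059 (without 1000 nM replicate 2) to 0.322, and CKAP2 from -0.235 to 0.085 (without 1000 nM replicate 2). With array weights they were at -0.072 and 0.087. The cause of these changes was not tested. No paired analysis was possible because the labels number the 60 libraries in 1 run and share no replicate number between groups. Libraries with under 2 M reads, 3 in all, limit the precision of their groups.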

Other observations

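The offset of the second library type from the first, as a mean over 11 groups, was below 0 in 14 of the 49 genes. It was lowest for KIF18B (-0.69), CDC25B (-0.47), ESPL1 (-0.46) and UBE2C (-0.46), and highest for SMC4 (0.73), HMMR (0.64), DLGAP5 (0.62) and CEP55 (0.57), on the log2 scale.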
